A study of Arabidopsis thaliana with 18 samples.

Results

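The genes described here are members of the circadian clock of Arabidopsis thaliana, taken as a list of 10 loci. CCA1 (AT2G46830), LHY (AT1G01060) and PRR9 stand for the morning, PRR7 (AT5G02810) and PRR5 (AT5G24470) for the day, and GI (AT1G22770), TOC1 (AT5G61380), ELF4 (AT2G40080), LUX and GRP7 (AT2G21660) for the evening. Of the 10 loci, 8 had a row among the 21430 probe sets of the array, and PRR9 and LUX were not analysed here. No measured value entered the rule that lists them, but the list was drawn up with earlier results of these data known. A further 34 genes that belong to the clock, act on it or lie directly under it were described beside them, of which 30 had a row.

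The data are 18 single-colour arrays of RNA from whole seedlings. In each line the 35S promoter of cauliflower mosaic virus, which is active in most plant cells, drives 1 of the PLETHORA (PLT) transcription factors, joined to the hormone-binding part of the glucocorticoid receptor (GR). Such a fusion is held outside the nucleus until the steroid dexamethasone (dex) is added. The dex groups were 35S-PLT1-GR (n = 3), 35S-PLT3-GR (n = 2), 35S-PLT4-GR (n = 3), 35S-PLT5-GR (n = 3) and 35S-PLT7-GR (n = 3), each given 10 µM dex for 6 h, and the mock group was the 35S-PLT4-GR line given DMSO (n = 4). Seedlings were 4 days old when they were moved from agar to shaken liquid culture, where they spent the night before the treatment. The libraries are biological replicates per the labels, which do not name flasks. The p-values measure the spread between these replicates, and nothing in the labels shows that they cover more than 1 experiment. The lines other than PLT4 have no mock of their own, no line without the fusion was given dex, and the 5 comparisons with mock share the same 4 mock libraries. The lines were treated at intervals of 5 min, so that line and order of harvest cannot be told apart. The light regime and the hour of harvest are not given in the sources used here.

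The plant clock is a loop of transcription factors that repress each other in turn through the day. The related MYB factors CCA1 and LHY peak around dawn and hold down the evening genes, the pseudo-response regulators PRR9, PRR7, PRR5 and TOC1 follow one another through the day and repress CCA1 and LHY, and the evening complex of ELF3, ELF4 and LUX closes the loop at dusk. The levels of these transcripts shift within hours.

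Values are on the log2 scale, where a difference of 1 is a doubling. A gene was called where the adjusted p of the moderated test of limma, with Benjamini-Hochberg adjustment over all 21430 probe sets, was below 0.05.

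A pair of libraries stood apart from their groups. The library labelled PLT1 replicate 3 went against its label: its PLT1 probe set read 3.50, against 11.00 and 11.08 in PLT1 replicates 1 and 2, and its PLT2 probe set read 10.28, against 4.36 and 4.38. Its actin 3′ minus 5′ difference, a sign of RNA quality, was 2.67, against 1.08 to 1.64 in all other libraries. For ubiquitin the difference was 1.79, against 1.19 to 1.44. For GAPDH it was 1.28, within the 1.13 to 1.53 of the other libraries. Over all probe sets mock replicate 4 had a mean correlation of 0.991 with the other mock libraries, against 0.992 to 0.994 for mock replicates 1 to 3. Of the mock libraries it lay furthest out in CCA1, LHY, PRR7, PRR5, TOC1 and GRP7, as its values below show. For GI and ELF4 another mock library lay furthest out. The protocol describes 3 mock flasks where the series lists 4 mock libraries. Whether genes outside the clock stood apart as well was not tested. Mock replicate 4 was singled out after its clock values were seen, so leaving it out narrows the spread of the mock group by construction. Root markers were measured at 5 of 5, with a mean of 4.85 to 6.07 in the 14 dex libraries and 6.39 to 6.64 in mock, and shoot markers at 2 of 5, with 11.06 to 11.71 in dex and 11.79 to 11.90 in mock. The root markers did not all fall together. COBL9, EXPA7, PRP3 and CASP1 averaged below mock in all 5 lines. PIN2 averaged 6.76 in PLT1, 6.83 in PLT7, 7.69 in PLT3, 7.45 in PLT4 and 7.52 in PLT5, against 7.45 in mock. The part of these marker differences in the clock values was not tested, and in whole seedlings fewer cells of a type and less RNA per cell cannot be told apart.

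The morning gene CCA1 was lower in all 5 dex lines than in mock, and GRP7 was higher in all 5. PLT7 differed most widely, with all 8 measured genes called, and PLT3 and PLT5 least, with CCA1 and GRP7 alone called. Where the other genes were called, the evening and day genes were higher and LHY was lower.

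CCA1 read 5.68, 5.69 and 4.39 in the PLT1 libraries, 5.73 and 5.99 in PLT3, 5.02, 5.19 and 5.28 in PLT4, 5.76, 6.00 and 5.52 in PLT5, and 4.72, 4.53 and 4.15 in PLT7. Mock replicates 1 to 3 read 7.37, 7.62 and 7.22, and mock replicate 4 read 5.88. Every dex library thus lay more than 1 log2 unit below mock replicates 1 to 3, whereas mock replicate 4 fell among the dex libraries, below PLT3 replicate 2 and PLT5 replicate 2. The difference from mock was -1.77 ± 0.35 (SE) in PLT1, -1.16 ± 0.40 in PLT3, -1.86 ± 0.35 in PLT4, -1.27 ± 0.35 in PLT5 and -2.56 ± 0.35 in PLT7 (limma adjusted p = 0.000483, 0.0405, 0.000534, 0.0149 and 1.69e-05). The call in PLT3 held in 12 of 24 alternative settings, and it was lost without any 1 of mock replicates 1 to 3 (adjusted p = 0.0906, 0.102 and 0.0773) or either PLT3 library (0.225 and 0.12), and with 5 other libraries left out in turn (0.0503 to 0.0514). That in PLT5 held in 22 of 24 and was lost without PLT5 replicate 1 (adjusted p = 0.0502) or 3 (0.0674). With both doubted libraries left out, the differences were -1.72, -1.55, -2.24, -1.65 and -2.94 for PLT1, PLT3, PLT4, PLT5 and PLT7, and all 5 were called.

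LHY, the close relative of CCA1, read 6.64, 6.92 and 5.05 in PLT1, 5.76 and 6.72 in PLT3, 5.56, 5.73 and 5.39 in PLT4, 6.07, 6.04 and 5.54 in PLT5, and 5.26, 5.29 and 5.27 in PLT7. The mock libraries read 6.55, 7.57, 7.13 and 5.26. Mock replicate 4 was among the lowest libraries here, at the level of PLT7, and all 5 lines overlapped mock. LHY fell in PLT7 (-1.36 ± 0.46, adjusted p = 0.0243), a call that held in 20 of 25 alternatives and was lost without mock replicate 2 or 3 or any 1 of the PLT7 libraries (adjusted p = 0.0595 to 0.0823). The differences of -0.43 in PLT1 (95% interval -1.40 to 0.55), -0.39 in PLT3 (-1.49 to 0.72), -1.07 in PLT4 (-2.04 to -0.09) and -0.74 in PLT5 (-1.72 to 0.23) were not called, and they leave room for falls as large as that of PLT7. In PLT1 the difference was 0.15 without the library labelled PLT1 replicate 3 and -0.88 without mock replicate 4 (adjusted p = 0.0744), called in neither setting. Leaving out mock replicate 4 alone gave calls in PLT4 (-1.52, adjusted p = 0.00638) and PLT5 (-1.20, adjusted p = 0.0371), and leaving out the library labelled PLT1 replicate 3 gave the one in PLT4 (adjusted p = 0.0256). When both doubted libraries were left out, LHY was called in PLT3 (-0.84), PLT4 (-1.52), PLT5 (-1.20) and PLT7 (-1.81) and remained uncalled in PLT1 (-0.31, adjusted p = 0.362).

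**Figure D1:**
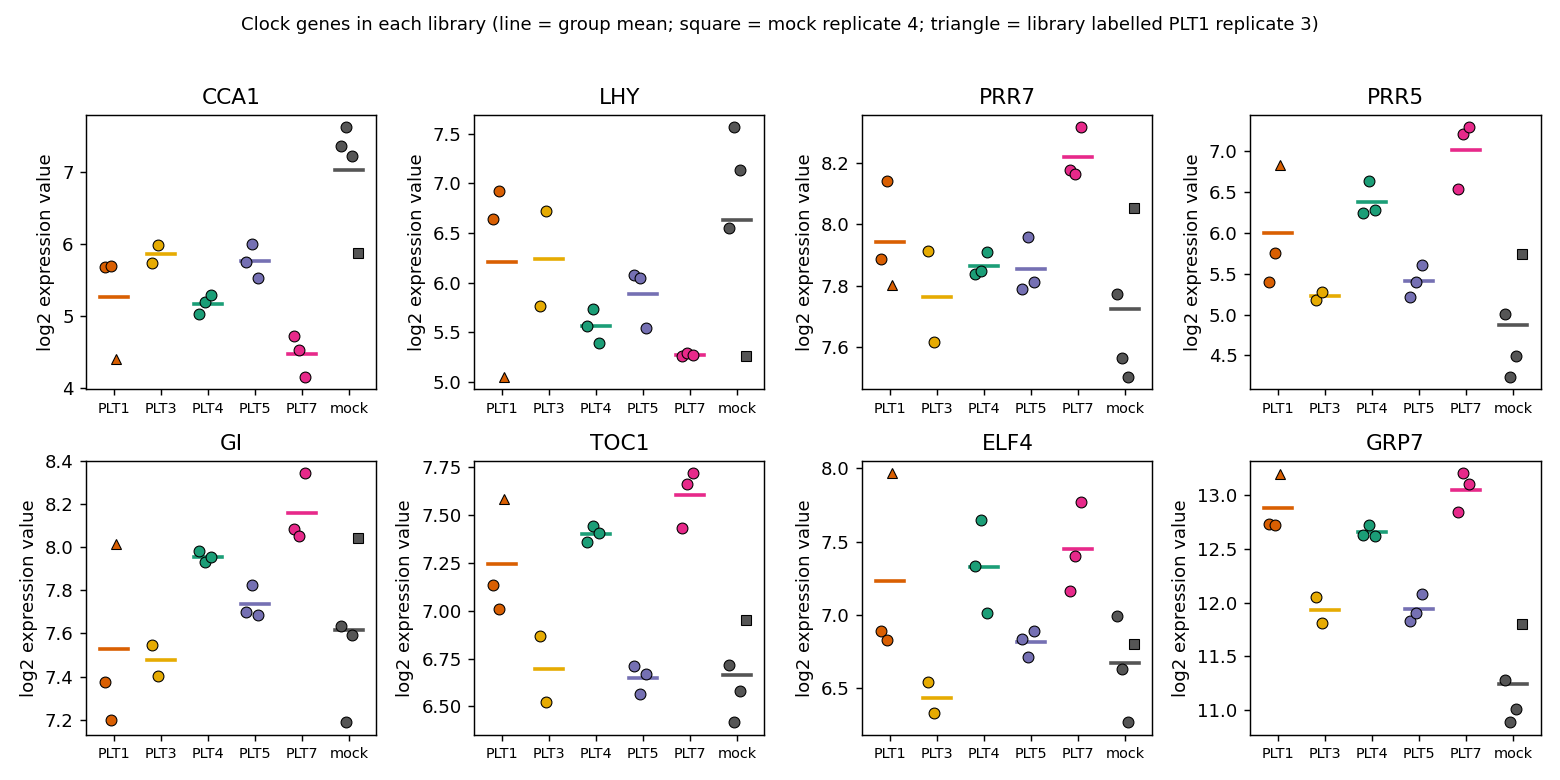
Log2 expression value (vertical axis, with its own range in each panel) of the 8 measured clock genes in every library, for the 5 dex lines and mock; points are libraries and lines are group means. In CCA1 and LHY, mock replicate 4 (square) lies 1.34 or more below mock replicates 1 to 3 for CCA1 and among the lowest libraries for LHY, and the library labelled PLT1 replicate 3 (triangle) stands away from PLT1 replicates 1 and 2, as in LHY (5.05) and ELF4 (7.97).

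Of the day genes, PRR7, a repressor of CCA1 and LHY, moved little. It read 8.18, 8.16 and 8.31 in PLT7, against 7.77, 7.57, 7.50 and 8.05 in mock, and all 3 PLT7 libraries lay above all 4 mock libraries. It rose in PLT7 by 0.49 ± 0.12 (adjusted p = 0.00285). The other dex libraries read 7.62 to 8.14 and overlapped mock, with differences of 0.22 in PLT1 (95% interval -0.04 to 0.47), 0.04 in PLT3 (-0.25 to 0.33), 0.14 in PLT4 (-0.11 to 0.39) and 0.13 in PLT5 (-0.12 to 0.38). Without mock replicate 4 the PLT1 difference was 0.33 and was called (adjusted p = 0.0173).

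PRR5, the next repressor in the daily sequence, read 5.39, 5.76 and 6.83 in PLT1, 5.17 and 5.28 in PLT3, 6.24, 6.63 and 6.28 in PLT4, 5.22, 5.40 and 5.60 in PLT5, and 6.54, 7.20 and 7.29 in PLT7. The mock libraries read 5.01, 4.24, 4.50 and 5.74. PLT4 and PLT7 lay wholly above mock, whereas PLT1, PLT3 and PLT5 overlapped it through mock replicate 4. PRR5 rose in PLT7 (2.14 ± 0.33, a 4.41-fold difference, adjusted p = 5.6e-05), PLT4 (1.51 ± 0.33, adjusted p = 0.00187) and PLT1 (1.12 ± 0.33, adjusted p = 0.00984). Without the library labelled PLT1 replicate 3 the PLT1 difference was 0.70 and was not called (adjusted p = 0.0562). In PLT3 (0.36, 95% interval -0.44 to 1.15) and PLT5 (0.54, -0.16 to 1.24) it was not called, and with both doubted libraries left out it was called in each of them (0.65 and 0.83).

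TOC1, the evening regulator that represses CCA1 and LHY, was higher in 3 of the 5 lines. It read 7.13, 7.01 and 7.58 in PLT1, 7.36, 7.44 and 7.41 in PLT4 and 7.43, 7.66 and 7.72 in PLT7, and all 9 of these libraries lay above every mock library (6.71, 6.42, 6.58 and 6.95). PLT3 (6.87 and 6.52) and PLT5 (6.71, 6.56 and 6.67) stayed within the mock range. TOC1 rose in PLT1 by 0.58 ± 0.14 (adjusted p = 0.00232), in PLT4 by 0.74 ± 0.14 (adjusted p = 0.000514) and in PLT7 by 0.94 ± 0.14 (adjusted p = 3.54e-05). The differences of 0.03 in PLT3 (95% interval -0.30 to 0.36) and -0.02 in PLT5 (-0.31 to 0.27) were not called, also not with both doubted libraries left out (0.12 and 0.08).

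GI, an evening protein of the flowering pathway that also stabilises the TOC1-degrading factor ZTL, read 8.09, 8.05 and 8.34 in PLT7, against 7.64, 7.19, 7.59 and 8.04 in mock. The PLT7 libraries lay above all mock libraries, the lowest by 0.01. GI rose in PLT7 by 0.55 ± 0.18 (adjusted p = 0.0205), a call lost without mock replicate 2 (adjusted p = 0.07) or PLT7 replicate 3 (0.0966). The remaining dex libraries read 7.20 to 8.02 and overlapped mock, with differences of -0.09 in PLT1 (95% interval -0.47 to 0.30), -0.14 in PLT3 (-0.57 to 0.29), 0.34 in PLT4 (-0.04 to 0.72) and 0.12 in PLT5 (-0.26 to 0.50). GI was also called in PLT4 without mock replicate 4 (0.48, adjusted p = 0.039).

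ELF4, a part of the evening complex, read 6.89, 6.83 and 7.97 in PLT1, 7.33, 7.64 and 7.01 in PLT4 and 7.16, 7.40 and 7.77 in PLT7, against 6.99, 6.63, 6.27 and 6.80 in mock. PLT4 and PLT7 lay above mock, by 0.02 at the closest. ELF4 rose in PLT7 (0.77 ± 0.24, adjusted p = 0.0155) and in PLT4 (0.66 ± 0.24, adjusted p = 0.0464), but the PLT4 call held in 12 of 25 alternatives. Leaving out mock replicate 2, 3 or 4, PLT4 replicate 1 or 2, or any of 6 libraries of other lines ended it (adjusted p = 0.056 to 0.199), and leaving out mock replicate 3 or PLT7 replicate 3 ended the PLT7 call (0.051 and 0.0901). The PLT1 difference of 0.56 (95% interval 0.04 to 1.07, adjusted p = 0.0688) was not called, was called without mock replicate 1 or PLT1 replicate 1 or 2, and was 0.19 without the library labelled PLT1 replicate 3. PLT3 (-0.24, -0.82 to 0.34) and PLT5 (0.14, -0.37 to 0.65) were not called.

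GRP7, an RNA-binding protein that feeds back on its own transcript as an output loop of the clock, rose in all 5 lines. It read 12.73, 12.73 and 13.20 in PLT1, 12.06 and 11.81 in PLT3, 12.64, 12.72 and 12.62 in PLT4, 11.83, 11.91 and 12.08 in PLT5 and 12.85, 13.21 and 13.10 in PLT7. The mock libraries read 11.28, 10.89, 11.01 and 11.80. GRP7 was the sole measured member whose 14 dex libraries all lay above all 4 mock libraries, by 0.003 at the closest, between PLT3 replicate 2 and mock replicate 4. Across the array 10.4% of probe sets had all dex libraries above mock and 9.45% had all of them below. GRP7 rose by 1.64 ± 0.18 in PLT1, 0.69 ± 0.20 in PLT3, 1.42 ± 0.18 in PLT4, 0.70 ± 0.18 in PLT5 and 1.81 ± 0.18 in PLT7 (adjusted p = 1.02e-06, 0.0175, 1.1e-05, 0.00879 and 4.84e-07). The PLT3 call held in 23 of 25 alternatives, PLT3 replicate 1 being the library without which it was lost (adjusted p = 0.179). Without both doubted libraries the rises were 1.67, 0.87, 1.60, 0.88 and 1.99.

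**Figure D2:**
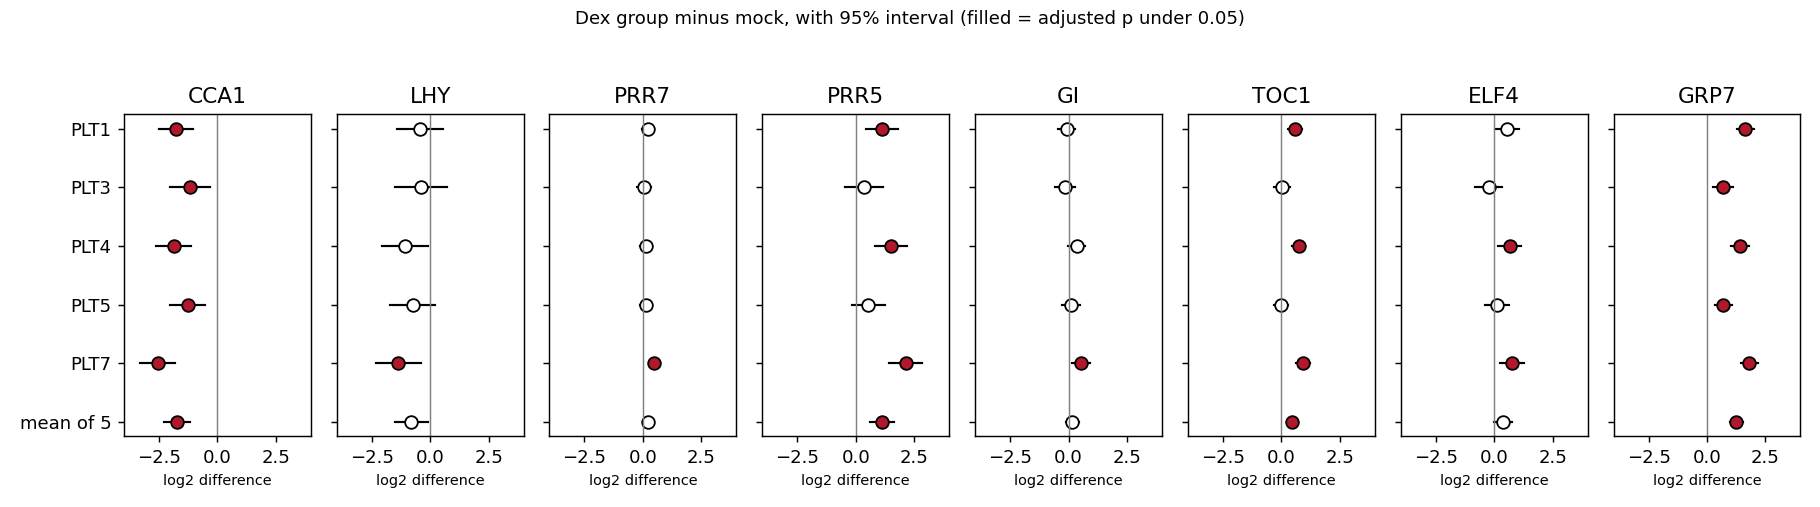
Log2 difference from mock (horizontal axis) of the 8 measured clock genes for each dex line and for the mean of the 5 lines (rows), with 95% intervals; filled points have an adjusted p below 0.05. CCA1 lies left of 0 and GRP7 right of 0 in all 5 lines, and PLT7 is filled in all 8 panels.

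By count, PLT1 had 3 of 8 genes higher and 1 lower, where 25.4% of all probe sets were called higher and 22.9% lower. PLT3 had 1 higher and 1 lower (12.9% and 12.6% of all), PLT4 had 4 higher and 1 lower (17.5% and 16.2%), and PLT5 had 1 higher and 1 lower (11.3% and 11.6%). PLT7 had 6 higher and 2 lower, where 22.7% of all probe sets were higher and 20.6% lower. In both directions together, 4 of 8 genes were called in PLT1, against 10361 of 21430 probe sets. For PLT1, counted so, and for PLT3 and PLT5 the counts are near the shares over all probe sets. With 8 genes the counts describe the list and are not a test of it.

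For the mean of the 5 lines, 3 of 8 genes were higher (PRR5 1.13 ± 0.25, TOC1 0.45 ± 0.10 and GRP7 1.25 ± 0.13) and 1 was lower (CCA1 -1.72 ± 0.26), where 23% of all probe sets were higher and 22.5% lower. The adjusted p of limma was 0.00112 for PRR5, 0.00161 for TOC1, 8e-07 for GRP7 and 3.93e-05 for CCA1. In both directions together, 4 of 8 genes were called, near the share over the array (9736 of 21430 probe sets). The median difference of the 8 genes was 0.29, against 0.004 over all probe sets. LHY (-0.80, 95% interval -1.52 to -0.07), PRR7 (0.20, 0.02 to 0.39), ELF4 (0.38, -0.005 to 0.76) and GI (0.16, -0.13 to 0.44) were not called. LHY was called without PLT1 replicate 2 (adjusted p = 0.0436), the library labelled PLT1 replicate 3 (0.046) or mock replicate 4 (0.00309), and PRR7 without PLT3 replicate 2 (0.0462), the library labelled PLT1 replicate 3 (0.0429) or mock replicate 4 (0.00545). With both doubted libraries left out, 7 of 8 were called, 5 higher and 2 lower, ELF4 being the exception (0.35, adjusted p = 0.0523).

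The genes were also read by time of day, as means of the morning genes (CCA1 and LHY) and the evening genes (GI, TOC1, ELF4 and GRP7). With each gene taken minus its mock mean, the morning mean lay below the evening mean in every dex library. The mean of the morning genes minus the mock mean was -0.67, -0.52 and -2.10 in PLT1, -1.08 and -0.47 in PLT3, -1.53, -1.36 and -1.49 in PLT4, -0.91, -0.81 and -1.30 in PLT5, and -1.83, -1.92 and -2.11 in PLT7. In the mock libraries it was 0.13, 0.77, 0.35 and -1.26. Mock replicate 4 thus lay below 6 of the 14 dex libraries. LHY was not below its mock mean (6.63) in PLT1 replicates 1 and 2 (6.64 and 6.92) or PLT3 replicate 2 (6.72). The fall of the morning mean in those libraries was that of CCA1 alone.

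The evening mean was 0.48, 0.39 and 1.14 in PLT1, 0.20 and -0.03 in PLT3, 0.78, 0.89 and 0.70 in PLT4, 0.22, 0.20 and 0.28 in PLT5, and 0.83, 1.03 and 1.18 in PLT7, against 0.11, -0.27, -0.19 and 0.35 in mock. PLT1, PLT4 and PLT7 lay above the mock range, and PLT3 and PLT5 lay within it. The rise depended in part on GRP7: without that gene the evening mean was 0.03 to 0.87 in PLT1, -0.23 to 0.000282 in PLT3, 0.47 to 0.69 in PLT4, 0.05 to 0.10 in PLT5 and 0.58 to 0.96 in PLT7, against -0.24 to 0.28 in mock. The day genes (PRR7 and PRR5) averaged 0.34 to 1.02 in PLT1, 0.15 to 0.25 in PLT3, 0.74 to 0.94 in PLT4, 0.21 to 0.41 in PLT5 and 1.06 to 1.50 in PLT7, against -0.39 to 0.60 in mock.

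The difference of the evening mean and the morning mean put the libraries in an order. It was 2.67, 2.95 and 3.30 in PLT7, 2.31, 2.25 and 2.19 in PLT4, 1.13, 1.01 and 1.58 in PLT5, 1.28 and 0.44 in PLT3, and 1.15, 0.91 and 3.25 in PLT1, against -0.03, -1.04, -0.54 and 1.61 in mock. Mock replicate 4, which had received no dex, was higher in this measure than all PLT3 and PLT5 libraries and PLT1 replicates 1 and 2, and lower than all PLT4 and PLT7 libraries. The library labelled PLT1 replicate 3 read like PLT7. A difference of the size seen in PLT3 and PLT5 was therefore also present between the mock libraries, of which mock replicate 4 stood furthest out. The part of the hour of harvest in any of these differences was not tested.

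**Figure D3:**
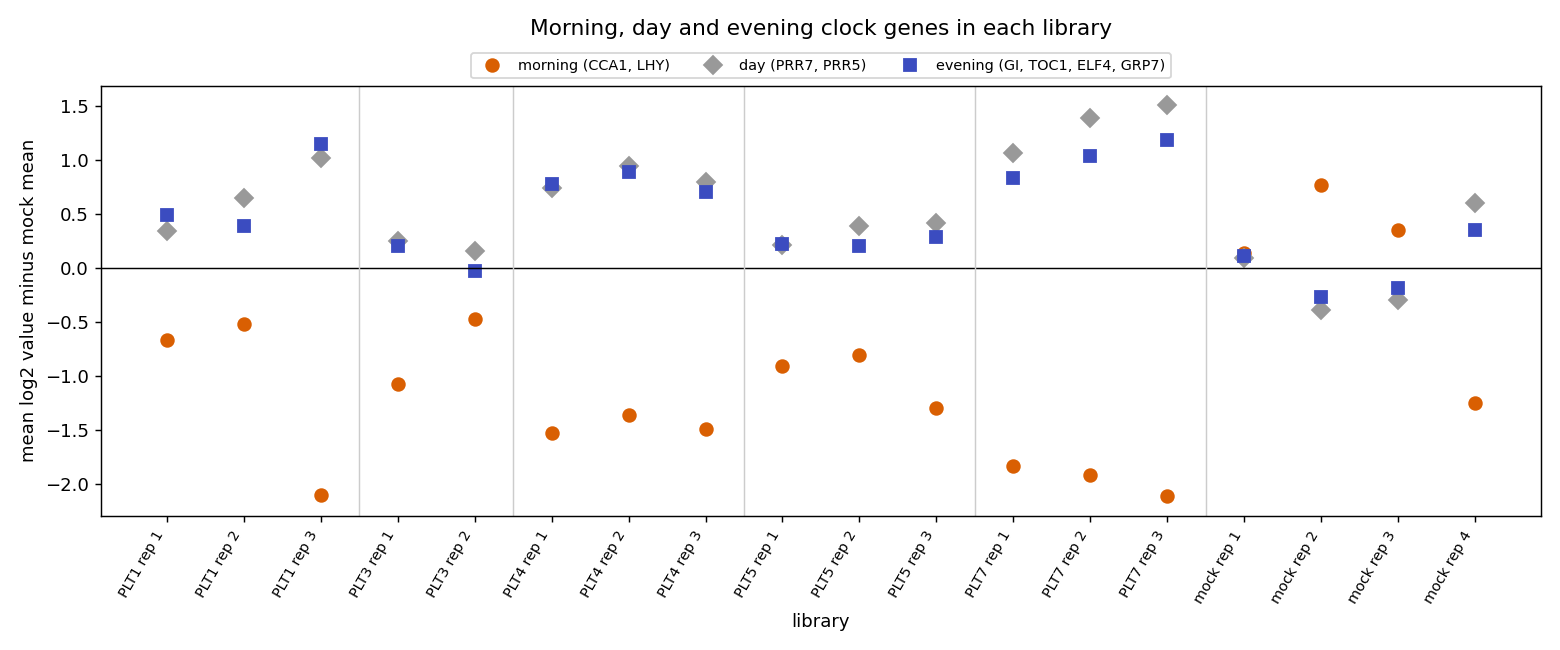
Mean log2 value minus the mock mean (vertical axis) of the morning, day and evening clock genes in each of the 18 libraries (horizontal axis); each point is the mean over the genes named in the legend. The morning genes lie below the mock mean in every dex library. The evening genes lie above it in every dex library but PLT3 replicate 2 (-0.03), and above the mock range in PLT1, PLT4 and PLT7. Mock replicate 4 (-1.26 for morning, 0.35 for evening) departs from the other mock libraries in the same direction.

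The lines were also compared with each other, without mock. The F test among the 5 lines called 3 of 8 genes, where 27.1% of all probe sets were called: TOC1 (adjusted p = 0.00042), GRP7 (adjusted p = 0.000603) and PRR5 (adjusted p = 0.00834). CCA1 (adjusted p = 0.0658), ELF4 (0.0556), GI (0.0613), PRR7 and LHY (0.472) were not called. It called 6 of 8 without the library labelled PLT1 replicate 3, 6 without mock replicate 4, which enters only the estimate of the spread, and 8 without both.

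For CCA1 the group means, from low to high, were 4.47 in PLT7, 5.17 in PLT4, 5.26 in PLT1, 5.76 in PLT5 and 5.86 in PLT3. For PRR5 they were 5.23 in PLT3, 5.41 in PLT5, 5.99 in PLT1, 6.38 in PLT4 and 7.01 in PLT7. No 2 neighbours in either order were called different, nor were any in the orders of LHY, PRR7, GI, ELF4 and GRP7. For TOC1 the means were 6.65 in PLT5, 6.70 in PLT3, 7.24 in PLT1, 7.40 in PLT4 and 7.60 in PLT7, and there the step between PLT1 and PLT3 was called (0.55 ± 0.17, adjusted p = 0.035). Without the library labelled PLT1 replicate 3 that step was 0.38 and was not called (adjusted p = 0.0748), nor was it without PLT3 replicate 2 (adjusted p = 0.35).

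In the 10 pairs of lines, 14 of 80 combinations of gene and pair were called. PLT3 against PLT7 had 5 of 8 genes called (9.9% of all probe sets): CCA1 was higher in PLT3 by 1.39 ± 0.42, and PRR5 (-1.78 ± 0.40), TOC1 (-0.91 ± 0.17), ELF4 (-1.01 ± 0.29) and GRP7 (-1.12 ± 0.21) were lower. The CCA1 call (adjusted p = 0.0454) held in 10 of 24 alternatives, with an adjusted p of up to 0.272 without PLT3 replicate 2. That of ELF4 (adjusted p = 0.0353) held in 20 of 25, and without PLT3 replicate 2 its adjusted p was 0.246. PLT5 against PLT7 had 4 of 8 called (17.4% of all), with CCA1 higher in PLT5 by 1.29 ± 0.37, and PRR5 (-1.60 ± 0.35), TOC1 (-0.96 ± 0.15) and GRP7 (-1.11 ± 0.19) lower, the CCA1 call (adjusted p = 0.0249) being held in 20 of 24 alternatives and lost without PLT5 replicate 1 or 2 or PLT7 replicate 2 or 3 (up to 0.0993). PLT1 was higher than PLT3 in TOC1 and GRP7 (2 of 8, 14.8% of all) and higher than PLT5 in the same genes (2 of 8, 25% of all). TOC1 was higher in PLT4 than in PLT5 by 0.76 ± 0.15 (1 of 8, 2.12% of all), a call held in 20 of 25 alternatives and lost without any 1 PLT4 library or PLT5 replicate 2 or 3 (adjusted p up to 0.0965). No clock gene was called in PLT1 against PLT4 (15.4% of all), PLT1 against PLT7 (8.3%), PLT3 against PLT4 (0.775%), PLT3 against PLT5 (0.383%) or PLT4 against PLT7 (11.5%). Without the library labelled PLT1 replicate 3, 32 of 80 combinations were called, among them CCA1 (1.22), LHY (1.51), PRR5 (-1.44), GI (-0.88) and TOC1 (-0.53) in PLT1 against PLT7.

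Among the 30 measured genes of the wider clock list, 15 differed by the test in the mean over lines, 6 higher and 9 lower, where 23% of all probe sets were higher and 22.5% lower. By line, 6 were higher and 11 lower in PLT1 (25.4% and 22.9% of all), 3 and 1 in PLT3 (12.9% and 12.6%), 5 and 6 in PLT4 (17.5% and 16.2%), 3 and 3 in PLT5 (11.3% and 11.6%), and 10 and 8 in PLT7 (22.7% and 20.6%). The counts in the mean and in PLT4 and PLT5 are near the shares over the whole array. With both doubted libraries left out, the counts were 5 and 7 in PLT3 (15.3% and 15.7% of all), 4 and 6 in PLT5 (13.5% and 14.8%), and 6 and 10 in the mean (24.6% and 22.8%). The median difference of the 30 genes in the mean of the 5 lines was -0.01. Of the 30, 3 had all dex libraries above mock (GRP8, COR27 and AT5G52660) and 2 had all of them below (CHE and RVE4), which is no more than the 10.4% and 9.45% of all probe sets that did so.

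CHE, a TCP factor that binds the CCA1 promoter, had the largest fall of the 30 in the mean. It read 6.29, 6.40 and 7.65 in PLT1, 7.86 and 7.69 in PLT3, 8.19, 8.31 and 8.14 in PLT4, 8.19, 8.53 and 8.53 in PLT5, and 6.98, 6.90 and 7.15 in PLT7, against 9.42, 9.34, 9.36 and 9.16 in mock. Mock replicate 4 was the lowest of the mock libraries by 0.18 and lay 0.62 above the highest dex library. The mean difference was -1.68 ± 0.17 (adjusted p = 4.63e-07), and CHE was called lower in each of the 5 lines.

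GRP8, the near copy of GRP7, read 12.14, 12.34 and 12.56 in PLT1, 12.06 and 11.98 in PLT3, 12.39, 12.51 and 12.40 in PLT4, 11.81, 11.80 and 12.05 in PLT5, and 12.36, 12.55 and 12.56 in PLT7, against 11.24, 11.17, 11.13 and 11.41 in mock. It rose by 1.00 ± 0.08 in the mean (adjusted p = 2.45e-08) and in each of the 5 lines. The probe sets of GRP7 and GRP8 hold different values, but probes that bind both transcripts cannot be told apart with these files. Mock replicate 4 lay 0.39 below the lowest dex library for GRP8, and 0.003 below it for GRP7.

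The LNK genes, of which LNK1 and LNK2 encode coactivators that work with RVE8 to raise PRR5 and TOC1, fell in the mean: LNK1 by 0.32 ± 0.10, LNK2 by 0.93 ± 0.16, LNK3 by 1.13 ± 0.24 and LNK4 by 0.73 ± 0.19 (adjusted p = 0.0202, 0.000188, 0.000961 and 0.00411). LNK2 read 6.75 to 7.79 in PLT1, 7.36 and 7.59 in PLT3, 6.89 to 7.07 in PLT4, 7.27 to 7.48 in PLT5 and 6.24 to 6.43 in PLT7, against 8.06, 8.41, 8.26 and 7.46 in mock. As with CCA1, mock replicate 4 sat among the dex libraries in LNK2, and likewise in LNK1 (7.54), LNK3 (6.03) and LNK4 (7.79).

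RVE4, an activator of evening genes from the MYB family of CCA1, fell by 0.72 ± 0.09 (adjusted p = 5.9e-06), and its mock libraries (8.20, 8.28, 8.15 and 8.14) lay close together above the highest dex value, 7.94. CHE and RVE4 thus separated dex from mock with mock replicate 4 among the mock libraries, whereas CCA1, LHY and the LNK genes did not. CDF1, a repressor of the flowering regulator CO, fell by 0.54 ± 0.09 in the mean of the lines (limma adjusted p = 0.000145). It was called lower in PLT1 (mean 5.64), PLT4 (6.28) and PLT7 (5.90), against 6.85 in mock. In PLT3 (6.97) and PLT5 (6.71) it was not called. TIC, a regulator of period, fell by 0.15 ± 0.06 (limma adjusted p = 0.0465). ELF4-L2, a relative of ELF4, fell by 0.22 ± 0.08 (adjusted p = 0.0449). Without both doubted libraries the TIC difference of -0.12 was not called (adjusted p = 0.163).

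PRR3, a relative of TOC1 that protects the TOC1 protein, rose by 1.18 ± 0.21 (adjusted p = 0.000155). It read 6.55, 6.53 and 6.75 in PLT1, 6.16 and 6.11 in PLT3, 7.06, 7.03 and 7.32 in PLT4, 6.22, 6.28 and 6.53 in PLT5 and 6.81, 7.09 and 7.20 in PLT7, against 5.41, 4.54, 5.48 and 6.44 in mock. Here too mock replicate 4 lay above both PLT3 libraries and among those of PLT5. AT5G52660, listed by locus alone, rose by 0.66 ± 0.13 (adjusted p = 0.000655), LWD2, a WD-repeat protein of the clock, by 0.41 ± 0.08 (adjusted p = 0.000379), CAT2, a catalase, by 0.36 ± 0.08 (adjusted p = 0.00186) and FIO1, whose loss lengthens the period, by 0.32 ± 0.08 (adjusted p = 0.00347).

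ELF3, the partner of ELF4 and LUX in the evening complex, differed by 0.05 (95% interval -0.19 to 0.29) and was not called. RVE8, the activator related to CCA1, read 3.23 to 3.85 over all 18 libraries, near the low end of the array's scale where differences are compressed, and its difference of -0.21 (-0.41 to -0.01) was not called (adjusted p = 0.0842). Without both doubted libraries RVE8 was called lower in the mean (-0.27, adjusted p = 0.0084) and in each line but PLT1 (-0.04). COR27, a cold-regulated repressor of the clock, was likewise low in mock (3.33 to 3.47), and its difference of 0.57 (0.06 to 1.08) was not called although all dex libraries (3.50 to 5.24) lay above mock.

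**Figure D4:**
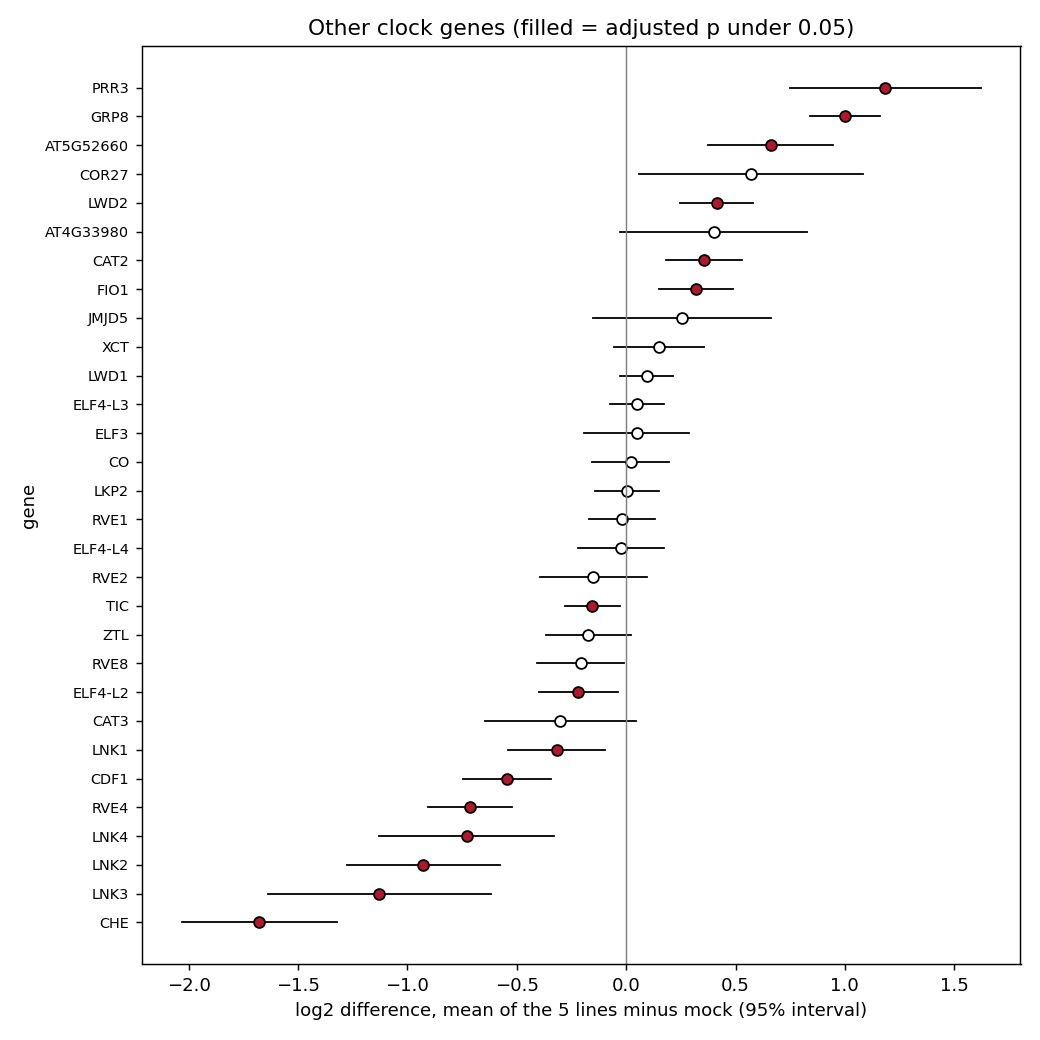
Log2 difference of the mean of the 5 dex lines from mock (horizontal axis, with 95% intervals) for the 30 measured genes of the wider clock list (rows); filled points have an adjusted p below 0.05. The filled points run from CHE (-1.68) to PRR3 (1.18), with 9 on the left of 0 and 6 on the right.

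Probe sets outside both clock lists were ranked by how closely their values followed a clock gene. The measure was the mean absolute difference over the 18 libraries, each value taken minus its mock mean. Ranked were 8943 probe sets of 1 named gene, without those that share all values with another probe set. Clock genes of either list were thus not compared in this ranking. For CCA1 the nearest probe sets were COL2 (0.313), OBP4 (0.4) and bHLH071 (0.402). COL2 in mock replicate 4 was 1.18 below its mock mean (value -1.18), as CCA1 was low there, whereas OBP4 (-0.06) and bHLH071 (-0.18) stayed near theirs. For PRR5 they were PWD (0.296), RIBA2 (0.3) and WCRKC1 (0.307), and for GRP7 they were PWD (0.113), PHS2 (0.206) and OEP16-1 (0.208). In mock replicate 4 the values of PWD (0.58), PHS2 (0.70), OEP16-1 (0.59), RIBA2 (0.79) and WCRKC1 (1.38) were each the highest of the 4 mock libraries. Mock replicate 4 was among the 18 libraries used for the ranking. A likeness to the clock genes in that library thus follows in part from the choice and is no separate evidence about it.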

How the data were processed

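RNA of whole seedlings was measured on 18 arrays, 1 column each in the deposited table, and samples were grouped by their titles. The authors deposited log2 values. RMA and limma 3.24.15 were used per the submitters' processing notes, with no role or order given. RMA brings arrays to a common distribution and compresses differences near background. There are no detection calls, and the number of arrays limits precision. Of 21494 rows, 64 are controls. Of the 21430 others, 21231 were found by locus among the genes of TAIR10.1, from which names alone were taken.

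All 18 arrays entered 1 limma fit (limma 3.58.1, R 4.3.3) with 1 coefficient per group and two-sided moderated tests, adjusted by Benjamini-Hochberg over 21430 probe sets per contrast at 0.05. The clock genes, the wider list and all tests were chosen with earlier results of these data known. Named are all measured clock genes, those of the wider list called in the mean of the 5 lines, GRP8, ELF3 and RVE8. Also named are the 3 probe sets outside both lists nearest to CCA1, PRR5 and GRP7. COR27 and ZTL fall outside this rule and COR27 was chosen after its values were seen. Phase means carry no test. Alternatives were each library left out in turn, compared groups alone, a replicate block, median centring of arrays, array weights, dim probe sets left out, and trend with robust variance. Replicate numbers were not treated as pairs in the main fit, and the labels do not say whether they pair samples. The median correlation of same-numbered deviations was 0.001 for number 1, -0.006 for number 2 and 0.006 for number 3. The highest was 0.214 for number 1, 0.0754 for number 2 and 0.236 for number 3.

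The fit was tested on simulated data. For PLT4 against mock over 21430 probe sets, 92% of 50 raised by 1 and 54% of 50 raised by 0.5 were called, with 3.29% of calls false. The simulation changed 200 probe sets, whereas 7224 were called in the measured data. Its percentages therefore do not give the chance of calling a clock gene here.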

Additional observations from a re-analysis of the deposited data

Results flagged for a closer look

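For 3 of the 8 clock genes the difference from mock was not the same in all lines, by the F test among the 5 lines. The adjusted p of limma was 0.000420 for TOC1, 0.000603 for GRP7 and 0.00834 for PRR5. TOC1 averaged 7.60 in PLT7 and 6.65 in PLT5, GRP7 averaged 13.05 in PLT7 and 11.93 in PLT3, and PRR5 averaged 7.01 in PLT7 and 5.23 in PLT3. Line and order of harvest cannot be told apart. Dixon's test for a library far from its group was run in the 4 mock libraries alone, on 25 sets of values, and marked 0, mock replicate 4 included. With 4 values it marks only very wide gaps: a gap of 0.77 of the range for CCA1 was not marked. The library furthest out was mock replicate 4 for CCA1, LHY, PRR7, PRR5, TOC1 and GRP7, mock replicate 2 for GI and mock replicate 3 for ELF4. The absence of marks thus does not show that mock replicate 4 belongs with its group.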

How the results depend on the processing

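The counts of clock genes called in PLT1 and PLT4 against mock stayed within 1.5 times under every alternative run (PLT1 3 to 6, PLT4 4 to 7), and no called direction reversed under any. Leaving out each library in turn gave 0 to 2 genes in PLT3, 1 to 3 in PLT5, 5 to 8 in PLT7 (5 without PLT7 replicate 3), 3 to 6 in the F test, and 7 to 32 of the combinations of gene and pair (7 without PLT3 replicate 2, 23 without mock replicate 4 and 32 without the library labelled PLT1 replicate 3). PLT3 had 0 with the compared groups alone, 1 with trend and robust variance and 1 with dim probe sets left out, where 7 clock genes were tested since CCA1 dropped out; PLT5 also had 1 there. The F test called 6 with the compared groups alone, 8 with array weights and 5 without dim probe sets, and the pairs gave 33 with the compared groups alone and 34 with array weights. With the replicate block, which sets mock replicate 4 aside because no other library has its number, the mean over lines had 7 and the F test 5, and LHY was called in PLT1 (-0.88, adjusted p = 0.0392). Leaving out both doubted libraries, chosen after seeing the data, gave 4 in PLT3, 4 in PLT5, 7 in the mean, 8 in the F test and 45 combinations. Where no cause is named, the cause was not tested. Of the 54 phase means, 23 moved by more than 1 SD of their group when mock replicate 4 was left out of the mock mean (morning -2.53 to -0.89 in the dex lines), 17 without mock replicate 2, 8 without mock replicate 3, 11 without GRP7 and 1 with median centring. The values of a few probe sets near background, such as RVE8, limit what differences could be seen.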
